A study of Caenorhabditis elegans with 9 samples.

Results

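The lbp genes of Caenorhabditis elegans encode lipid-binding proteins of the fatty acid binding protein family. The 9 members lbp-1 to lbp-9 were taken by gene name, and each was represented by exactly 1 probe set on the array, so that they form 9 of the 17118 genes named alone by a probe set. The family was selected on measured values of these same arrays. Which values were used is not recorded with the rule, so both comparisons with the control are counted as used. The differences of the members from the control are given as a description, with no p-value, and nothing is supported by them.

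Expression was measured in whole L1 larvae of the wild-type strain N2 on Affymetrix C. elegans Genome Arrays, with 3 arrays in each of 3 groups. Parents at the L4 stage were fed bacteria that express double-stranded RNA at 25 °C, their eggs were bleached, and the larvae hatched without food and then ate the same bacteria for 3 h. The double-stranded RNA was directed against let-418, which encodes a Mi-2 chromatin remodelling ATPase, against mep-1, which encodes a zinc finger protein that binds LET-418, or against gfp, a sequence that N2 worms do not carry. Every group thus ate RNA-expressing bacteria and differed in the target. Each array held RNA pooled from many larvae, and each group had 1 array in each of 3 batches. In such bulk RNA, fewer cells of a type and less RNA per cell cannot be told apart.

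The values are MAS5 signals, the brightness of a probe set summarised over its probes, scaled here to a common trimmed mean per array (factors 0.758 to 1.58). A call means a Benjamini-Hochberg adjusted p under 0.05 over all 22548 probe sets in limma's moderated test and a fold of at least 2. The median of a whole array was 94.5 to 112 after scaling. The signals of the targeted genes were not lower in their own knockdown: the let-418 signal was 933 ± 101 (SD, n = 3) in gfp(RNAi) and 1819 ± 439 in larvae labelled let-418(RNAi), while the mep-1 signal was 1527 ± 80.6 in gfp(RNAi) and 1597 ± 58.7 in larvae labelled mep-1(RNAi). These signals thus do not bear out the labels, and let-418(RNAi) and mep-1(RNAi) stand throughout for the libraries so labelled. Probe sequences were not at hand, so whether these probe sets match the RNA fed to the larvae was not tested. The study states that its RNAi was checked by the expected phenotype, and it reports higher pgl-1 mRNA by qRT-PCR after either treatment. On these arrays too pgl-1 was called higher in both, at 171 ± 16.2 in gfp(RNAi), 577 ± 98.0 in let-418(RNAi) and 731 ± 87.5 in mep-1(RNAi). None of 37 marker genes of 6 cell types lay under the lower quartile of all signals on every gfp(RNAi) array. The summed signal of 6 germline markers was 635 to 651 in gfp(RNAi), 3422 to 4772 in let-418(RNAi) and 4765 to 5043 in mep-1(RNAi), with 5 of the 6 called higher in both. The summed signal of 8 intestine markers was 20864 to 21647, 14062 to 16222 and 15371 to 19383 in the same order, with 1 called higher and 1 lower in let-418(RNAi) and 1 called higher in mep-1(RNAi). The summed signal of 5 pharynx markers was 6291 to 10168, 4669 to 5122 and 3938 to 6369, with 0 of the 5 called in either knockdown.

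Fatty acids are poorly soluble in water, and small binding proteins with a barrel-shaped pocket carry them through the cytoplasm or the body fluid. The nematode family holds intracellular forms and forms with a secretion signal, the latter found first in parasitic worms. In C. elegans the intestine is the main site of fat storage and breakdown, and several LBP proteins link lipid stores to signalling. LBP-8 is the best known of these: it moves from lysosomes to the nucleus, where it delivers lipids to the nuclear hormone receptors NHR-49 and NHR-80, downstream of the lysosomal lipase LIPL-4.

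Among the 9 members, lbp-8 was lower in both knockdowns, from signals under the lower quartile of every array, and lbp-1 was about 2-fold higher in let-418(RNAi). The other 7 members differed from gfp(RNAi) by less than 2-fold in either knockdown. In let-418(RNAi), 1 member was called higher (lbp-1) and 1 lower (lbp-8), beside 6.54 and 2.75% of all probe sets called higher and lower. In mep-1(RNAi), none was called higher and 1 was called lower (lbp-8), beside 6.78 and 3.3% of all probe sets. Arrays of the knockdown lay wholly above or below gfp(RNAi) for 2 members in let-418(RNAi) and 3 in mep-1(RNAi), where 33.8 and 33.7% of all probe sets did so. The median log2 fold change of the members was 0.04 in let-418(RNAi) and -0.10 in mep-1(RNAi), against -0.03 and 0.02 for all probe sets. The 3 gfp(RNAi) arrays serve as control in both of these comparisons.

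**Figure D1:**
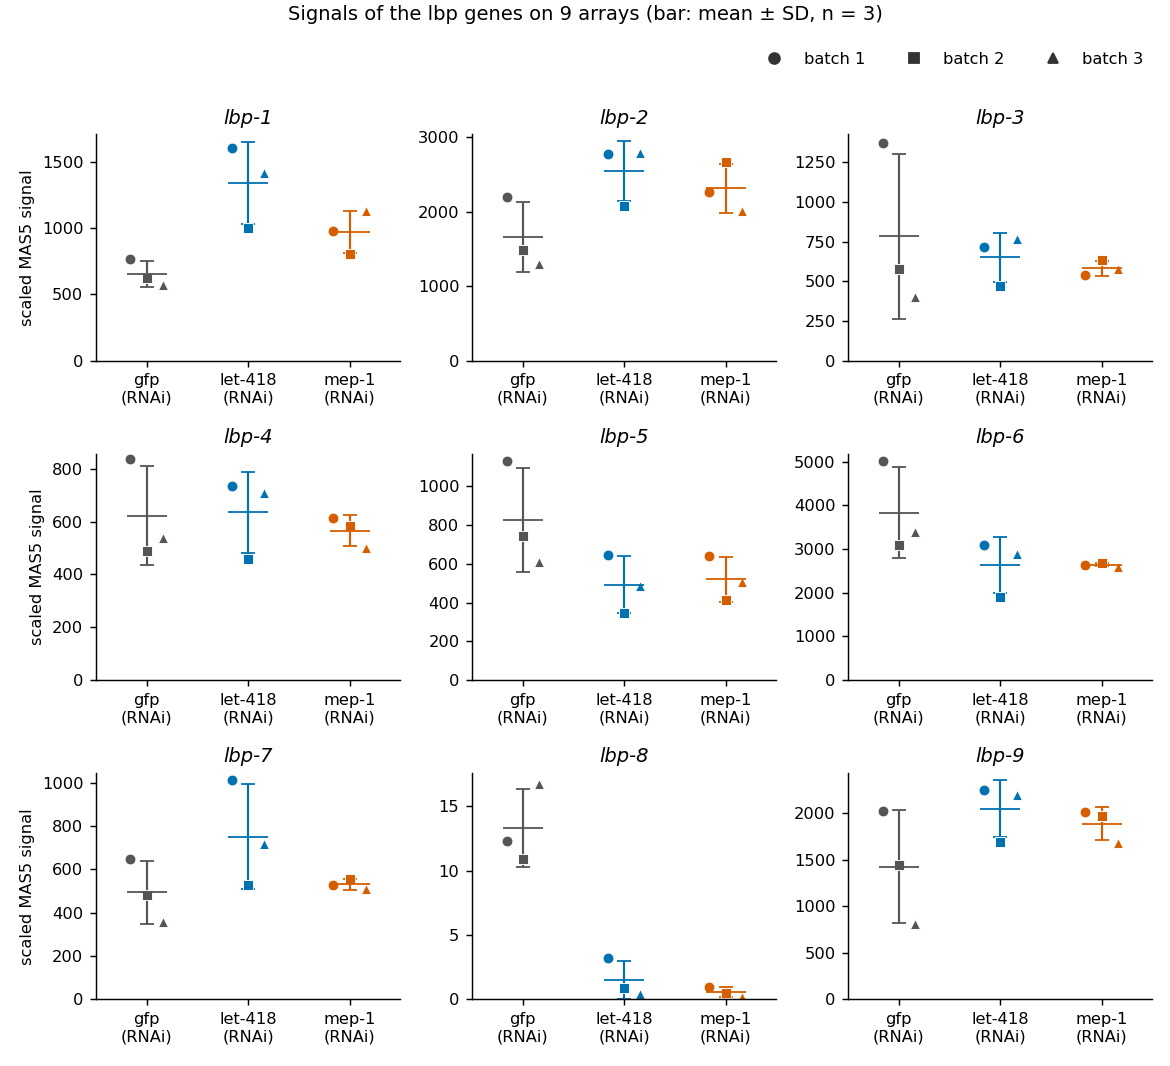
Scaled MAS5 signal (linear axis from 0, own range per gene) of each lbp gene by group, with symbols for the 3 batches and bars for the mean ± SD of 3 arrays. The gfp(RNAi) array of batch 1 is the highest of its group in all panels but lbp-8, whose signals do not pass 16.8.

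The secreted forms lbp-1, lbp-2 and lbp-3 are neighbours in the genome, with no other protein-coding gene between lbp-1 and either of the other two. The lbp-1 signals were 765, 627 and 570 in gfp(RNAi) batches 1 to 3, then 1608, 1001 and 1418 in let-418(RNAi), and 980, 807 and 1126 in mep-1(RNAi). Both knockdowns lay above all control arrays. The log2 fold change was 1.02 (SE 0.20, 2.03-fold) in let-418(RNAi) and 0.57 (SE 0.20, 1.48-fold) in mep-1(RNAi), and only the first was called. That call rests close to the 2-fold limit, and it was lost without gfp(RNAi) replicate 2 or 3 or without let-418(RNAi) replicate 1 or 3, where the log2 fold change stayed between 0.88 and 1.22 over all single arrays left out.

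The lbp-2 signals were 2190, 1488 and 1300 in gfp(RNAi), 2768, 2077 and 2785 in let-418(RNAi), and 2256, 2663 and 2013 in mep-1(RNAi). Within batches the knockdown was higher in 3 of 3 for both targets, but the groups overlapped because the batch 1 control exceeded 1 array of each knockdown. The share of all probe sets with 1 direction in 3 of 3 batches was not counted, and both knockdowns share the controls. The log2 fold changes were 0.64 (SE 0.21) and 0.50 (SE 0.21). LBP-3, which in C. elegans is secreted from fat-storing tissue and signals to neurons, showed no common direction. Its gene gave 1370, 575 and 401 in gfp(RNAi), 714, 471 and 764 in let-418(RNAi), and 539, 633 and 576 in mep-1(RNAi). The control arrays alone spanned more than both knockdowns, with a coefficient of variation of 66%. The log2 fold changes of -0.10 and -0.23 (SE 0.36 each) became 0.40 and 0.28 without gfp(RNAi) replicate 1.

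The neighbours lbp-5 and lbp-6, separated by 1 protein-coding gene, were lower in both knockdowns in 3 of 3 batches. How many of all probe sets were so was not counted, and both knockdowns share the 3 controls. LBP-5 is an intracellular form involved in fat storage. The lbp-5 signals were 1129, 743 and 611 in gfp(RNAi), 643, 346 and 488 in let-418(RNAi), and 642, 411 and 507 in mep-1(RNAi). The batch 3 control overlapped the batch 1 array of both knockdowns. The log2 fold changes were -0.75 and -0.65 (SE 0.27 each), and neither was called. The lbp-6 signals were 5027, 3096 and 3388 in gfp(RNAi), 3100, 1896 and 2879 in let-418(RNAi), and 2643, 2671 and 2600 in mep-1(RNAi). The mep-1(RNAi) arrays differed by a coefficient of variation of 1.35% and lay below all controls, whereas let-418(RNAi) overlapped them narrowly. The log2 fold changes were -0.55 and -0.51 (SE 0.22 each), and neither was called. Without gfp(RNAi) replicate 1 the sizes shrank to -0.50 and -0.40 for lbp-5, and to -0.34 and -0.30 for lbp-6. The summed intestine markers were also lower in both knockdowns, as given above, but the genes of that list did not move as one. In it, elt-2 was called higher in both (log2 fold changes 1.25 and 1.39) and mtl-2 lower in let-418(RNAi) (-2.46). The summed pharynx markers were lower in let-418(RNAi) and overlapped the control in mep-1(RNAi). The part of either tissue in the lbp-5 and lbp-6 values was not tested.

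The remaining members above the lower quartile of signals on every array were lbp-4, lbp-7 and lbp-9. The lbp-4 signals were 837, 490 and 538 in gfp(RNAi), 736, 458 and 709 in let-418(RNAi), and 613, 583 and 501 in mep-1(RNAi), with log2 fold changes of 0.04 and -0.10 (SE 0.23 each). The lbp-7 signals were 647, 480 and 356 in gfp(RNAi), 1012, 528 and 717 in let-418(RNAi), and 530, 555 and 508 in mep-1(RNAi), with log2 fold changes of 0.60 and 0.14 (SE 0.25 each). The lbp-9 signals were 2023, 1447 and 805 in gfp(RNAi), 2251, 1693 and 2193 in let-418(RNAi), and 2007, 1971 and 1681 in mep-1(RNAi), with log2 fold changes of 0.61 and 0.50 (SE 0.27 each). All 3 genes overlapped between groups and none was called. For lbp-9 the difference hung on the lowest control: without gfp(RNAi) replicate 3 it was 0.25 and 0.14.

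The lbp-8 signals were 12.3, 10.9 and 16.8 in gfp(RNAi), 3.19, 0.865 and 0.459 in let-418(RNAi), and 0.989, 0.523 and 0.185 in mep-1(RNAi). Every knockdown array lay below every control array. The means were 13.3 ± 3.05, 1.50 ± 1.47 and 0.566 ± 0.404 (SD, n = 3), and the log2 fold changes were -3.60 and -4.84 (SE 0.92 each). All 9 values were nevertheless dim. The lower quartile of an array was 19.4 to 23.8, and lbp-8 lay under it on every array, the controls included. On control arrays 15.3 to 22.5% of probe sets were dimmer than lbp-8, and on knockdown arrays 0.031 to 6.89%.

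**Figure D2:**
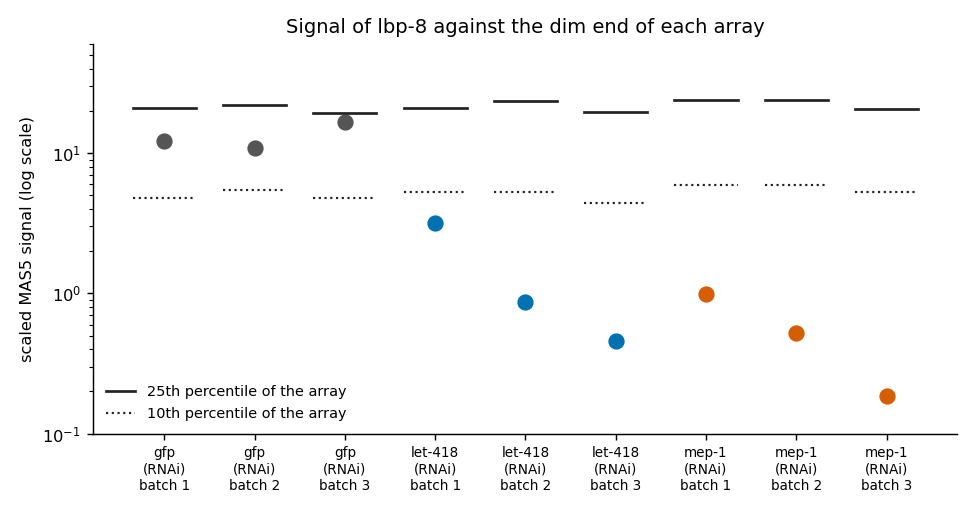
Scaled MAS5 signal of lbp-8 (log axis) on each of the 9 arrays, with the 25th (solid) and 10th (dotted) percentile of all probe sets of that array. The 3 control points lie between the lines, and the 6 knockdown points lie below both.

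At this brightness the size of a log2 fold change depends on how low values are treated. As an alternative, an offset of 21.6, the lower quartile of all scaled signals, was added before the logarithm. The lbp-8 log2 fold changes were then -0.60 and -0.65 (SE 0.11 each), under the 2-fold limit, and neither was called. In let-418(RNAi) lbp-1 (0.997), lbp-2 (0.63), lbp-5 (-0.72) and lbp-9 (0.60) then differed from the control by more than lbp-8. In mep-1(RNAi) lbp-8 still differed most among the members, followed by lbp-5 (-0.625). The SD of log2 signal within groups was 1.1 for lbp-8, 1.07 for the probe sets that were dim on all control arrays and 0.30 for the 11274 probe sets with the higher mean log2 signals. Of 4340 probe sets under the lower quartile on all control arrays, 27 were called lower in let-418(RNAi) and 24 in mep-1(RNAi), among 621 and 744 called lower in all. The file gives no detection calls, so whether lbp-8 was above background in gfp(RNAi) was not tested. Its probe set is also of a type whose probes can match other transcripts in part, the only such one among the members. The mep-1(RNAi) call remained without any single array. In let-418(RNAi) the call was lost without gfp(RNAi) replicate 1, 2 or 3 or without let-418(RNAi) replicate 2 or 3. Its log2 fold changes in let-418(RNAi) were -4.38 to -2.98 over all single arrays left out. The family was selected on these same values, so whether a call remained describes the fit and supports nothing.

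lbp-7, the nearest lbp gene to lbp-8 with 3 protein-coding genes between them, did not share its low signals: its control and knockdown arrays overlapped. Over the 9 arrays, the genes with the log2 signal most like that of lbp-8 were nhr-11, which encodes a nuclear hormone receptor (Pearson r = 0.98), sms-2, which encodes a sphingomyelin synthase (r = 0.98), and btb-18, which encodes a BTB domain protein (r = 0.97). The points share the 3 groups, and the genes were picked as the highest values over the whole array. The nhr-11 signal was 582 ± 25.4 in gfp(RNAi), 255 ± 36.8 in let-418(RNAi) and 220 ± 64.2 in mep-1(RNAi). The sms-2 signal was 308 ± 7.56, 217 ± 39.8 and 197 ± 31.9, and that of btb-18 was 43.3 ± 5.11, 22.2 ± 4.01 and 19.7 ± 2.76.

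Whether the direct comparison of both knockdowns was also used to choose the family is not recorded, so its values too are only a description. No member was called in this comparison. Of 9 members, 0 were called by limma, 1 (lbp-1) had an unadjusted p under 0.05, and 0 were called by the methods' t-test, where limma called 0.00443% of all probe sets. The mep-1(RNAi) signal was lower than that of let-418(RNAi) for 7 members by the sign of the log2 fold change alone. For lbp-1 the log2 difference, mep-1(RNAi) minus let-418(RNAi), was -0.45 (95% confidence interval -0.89 to -0.02, limma adjusted p = 0.87). Its mep-1(RNAi) signal was lower in 3 of 3 batches, with no share of all probe sets counted beside this. For lbp-7 the log2 difference was -0.45 (-0.996 to 0.09, limma adjusted p = 0.89), and for lbp-8 -1.24 (-3.27 to 0.79, limma adjusted p = 0.94). The intervals of the 8 members other than lbp-8, each unadjusted, ran from -0.996 to 0.692 at most. They stayed within 2-fold in this fit only, for lbp-7 narrowly, and no 2-fold limit is drawn from them. Without let-418(RNAi) replicate 2, lbp-7 was -0.68 (SE 0.24), and with no intensity trend -0.45 with a wider SE of 0.29. With no scaling, lbp-1 and lbp-7 were -0.67 each, with a wider SE of 0.35 each, too wide to stay within 2-fold. The lbp-8 interval reached past 2-fold in the main fit as well.

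**Figure D3:**
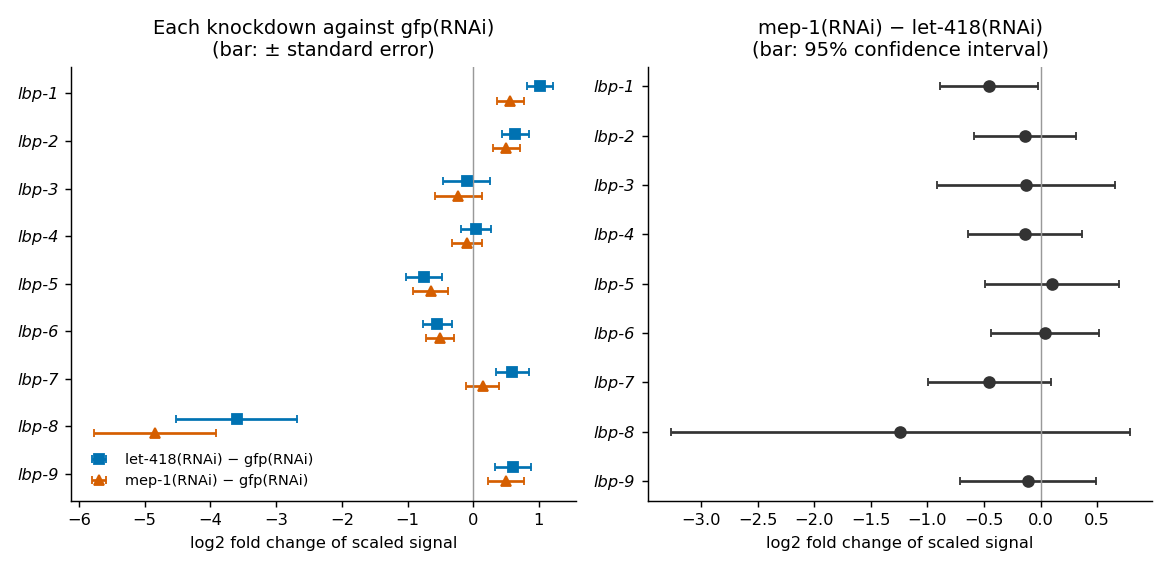
Log2 fold change of scaled signal for each lbp gene: on the left each knockdown against gfp(RNAi) with bars of ± 1 standard error, on the right mep-1(RNAi) minus let-418(RNAi) with 95% confidence intervals. On the right only the lbp-1 interval (-0.89 to -0.02) leaves out 0, before adjustment.

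The 8 members other than lbp-8, which were bright on every array (346 to 5027), also deviated together on some gfp(RNAi) and let-418(RNAi) arrays, and not in mep-1(RNAi). The gfp(RNAi) array of batch 1 was the highest of its group for 8 of 8, where it was highest for 30.8% of the same 11274 brighter probe sets. Its lbp signals lay on average 0.51 above the group mean on the log2 scale, against a median of -0.03 for those probe sets. The let-418(RNAi) array of batch 2 was the lowest of its group for 8 of 8, where it was lowest for 28.1% of the brighter probe sets, with a mean deviation of -0.40 against a median of 0.02. The mep-1(RNAi) arrays deviated by -0.05 to 0.05 on average. The median coefficient of variation of these members was 29.9% in gfp(RNAi), 24.1% in let-418(RNAi) and 9.85% in mep-1(RNAi), beside 13.6, 13.1 and 14.8% for the brighter probe sets. The members share each library and are no replicates of one another. The medians of the brighter probe sets are kept near 0 by the scaling, so they do not measure how far other small sets of genes deviate.

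**Figure D4:**
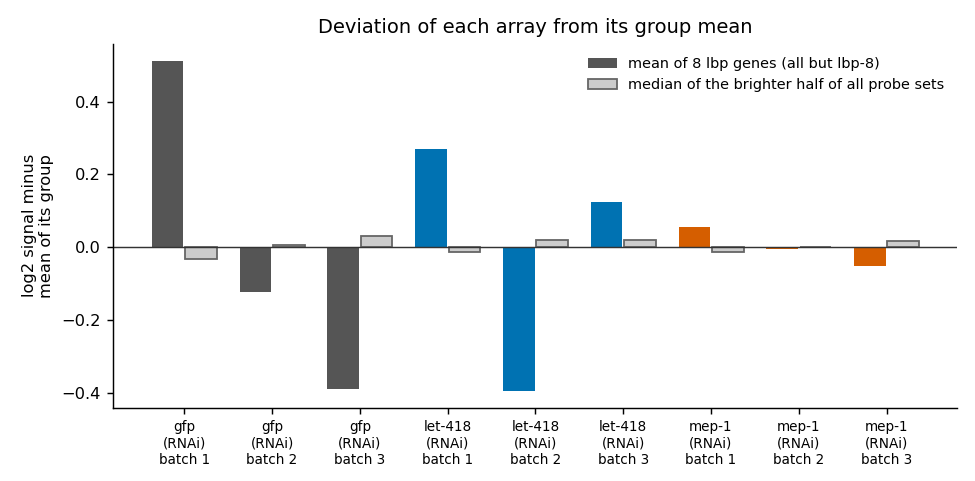
Mean log2 deviation of the 8 lbp genes other than lbp-8 from their group mean on each array (coloured bars), beside the median deviation of the 11274 brighter probe sets (grey bars). The members reach 0.51 on the gfp(RNAi) array of batch 1 and -0.40 on the let-418(RNAi) array of batch 2. The grey bars are kept near 0 by the scaling of the arrays.

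Since the batch 1 control was the highest of its group for these 8 members, leaving it out necessarily moved all 8 upward in both comparisons. Without it the log2 fold changes of lbp-1, lbp-2 and lbp-3 were 1.14, 0.86 and 0.40 in let-418(RNAi), and 0.69, 0.72 and 0.28 in mep-1(RNAi). The lbp-4, lbp-7 and lbp-9 values were 0.27, 0.81 and 0.91 in let-418(RNAi) and 0.13, 0.36 and 0.80 in mep-1(RNAi). The lbp-8 values stayed at -3.65 and -4.89.

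Other lipid genes were counted in 8 lists holding 111 genes, of which 105 were measured. In let-418(RNAi), 10 were called higher and 4 lower, and in mep-1(RNAi) 10 higher and 2 lower. Over all probe sets, 6.54% were called higher and 2.75% lower in let-418(RNAi), and 6.78 and 3.3% in mep-1(RNAi). The counts of each list below are to be read against these shares, and nothing particular to a list is drawn from them. The lists were drawn up with earlier results of these data known, and the genes named were picked for large called changes. Their adjusted p-values thus describe the choice and support nothing. Without single arrays these counts of calls lay between 10 and 16 for let-418(RNAi) and between 11 and 13 for mep-1(RNAi). Between the knockdowns limma called 0 of the 105, with 11 at an unadjusted p under 0.05 and 0 by the methods' t-test. The peroxisomal acyl-CoA oxidase gene acox-1.2, named after its values were seen, was called there without mep-1(RNAi) replicate 3 (log2 difference 1.69, limma adjusted p = 0.011), against 1.25 (adjusted p = 0.47) with all arrays.

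The fatty acid and retinol binding proteins of the far genes, secreted nematode carriers unrelated in fold to the LBP family, had 3 of 8 called higher in both knockdowns. The far-2 signal was 1042, 596 and 605 in gfp(RNAi), 5077, 3973 and 6408 in let-418(RNAi) and 5388, 6549 and 3640 in mep-1(RNAi). It rose by 2.81 on the log2 scale in both (SE 0.27, limma adjusted p = 3.1e-05 and 2.7e-05). The far-6 gene rose by 3.11 and 3.23 (SE 0.25), and far-7 by 1.69 and 1.17 (SE 0.24). The far-7 call in mep-1(RNAi) was lost with no scaling or without mep-1(RNAi) replicate 3. The list's median log2 fold changes were 0.20 and 0.07, since the other 5 genes were not called.

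The lysosomal acid lipases release fatty acids from stored fat, and LIPL-4 acts upstream of LBP-8 in C. elegans. Of 8 lipl genes, 2 were called higher and 1 lower in let-418(RNAi), and 1 was called higher in mep-1(RNAi), with median log2 fold changes of 0.09 and 0.16. The lipl-1 signal rose from 58.7, 76.2 and 59.6 in gfp(RNAi) to 405, 417 and 371 in let-418(RNAi) and 488, 359 and 434 in mep-1(RNAi), by 2.63 and 2.72 on the log2 scale (SE 0.17, limma adjusted p = 1.9e-06 and 1.2e-06). The lipl-4 signal was 38.1, 63.3 and 24.7 in gfp(RNAi), 17.04, 2.71 and 5.10 in let-418(RNAi) and 13.4, 33.6 and 19.8 in mep-1(RNAi). It fell by 2.66 in let-418(RNAi) (SE 0.67, limma adjusted p = 0.019), where all arrays lay under the lower quartile, and was -0.91 in mep-1(RNAi) (adjusted p = 0.41). With the offset the let-418(RNAi) value was -1.08, and the call was lost without gfp(RNAi) replicate 2 or without let-418(RNAi) replicate 2 or 3. The lipl-2 gene was called in let-418(RNAi) at 1.199 (SE 0.27, limma adjusted p = 0.011), a call lost with no scaling or with the offset, and was 0.69 in mep-1(RNAi) (adjusted p = 0.11).

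The transcription regulators of lipid genes, nhr-49 and nhr-80 among them, had 0 of 6 called in either knockdown, with median log2 fold changes of 0.32 and 0.25. The acyl-CoA-binding proteins, which hold activated fatty acids in the cytoplasm, had 0 of 6 called (medians -0.29 and -0.31), and the vitellogenins, the yolk proteins, 0 of 5 (medians -0.25 and -0.11). Of 15 measured desaturases and elongases, which shape fatty acid chains, 1 was called and it was lower in both (medians 0.09 and 0.01). This was fat-5, a palmitoyl-CoA desaturase gene, at 469, 623 and 631 in gfp(RNAi), 73.3, 85.4 and 82.8 in let-418(RNAi) and 42.5, 56.5 and 79.8 in mep-1(RNAi). It fell by 2.82 and 3.30 on the log2 scale (SE 0.24, limma adjusted p = 1.1e-05 and 2.9e-06), and its groups did not overlap.

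The acyl-CoA synthetases, which activate fatty acids, had 1 of 20 called in let-418(RNAi) and 2 in mep-1(RNAi), all higher (medians 0.05 and 0.37). The acs-11 gene rose by 2.31 and 2.44 (SE 0.25), and acs-7 by 1.17 in mep-1(RNAi) (SE 0.22, limma adjusted p = 0.0034), where its let-418(RNAi) value was 0.85 (adjusted p = 0.022), under 2-fold. The acs-7 call in mep-1(RNAi) was lost with no scaling. Of 37 measured genes of beta-oxidation, the stepwise breakdown of fatty acids, 4 were called higher and 2 lower in let-418(RNAi), and 4 higher and 1 lower in mep-1(RNAi) (medians 0.33 and 0.46). The enoyl-CoA hydratase gene ech-7 gave 343, 228 and 427 in gfp(RNAi), 39.6, 38.4 and 41.4 in let-418(RNAi) and 45.0, 48.5 and 32.6 in mep-1(RNAi). It fell, with log2 fold changes of -3.02 and -2.96 (SE 0.27, limma adjusted p = 1.7e-05 in both). The peroxisomal oxidase gene acox-3 rose by 1.56 and 2.04 (SE 0.18). The ech-9 gene was called higher at 1.92 and 1.61 (SE 0.47, limma adjusted p = 0.018 and 0.039), but its batch 3 control of 238 exceeded the mep-1(RNAi) array of batch 2 at 212. The let-418(RNAi) call was lost without gfp(RNAi) replicate 1 or 2 or any let-418(RNAi) array, and the mep-1(RNAi) call without any of these or without mep-1(RNAi) replicate 1 or 3. Both ech-9 calls were lost with no intensity trend in the fit, and that in mep-1(RNAi) also with no scaling or with only the 6 arrays compared.

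**Figure D5:**
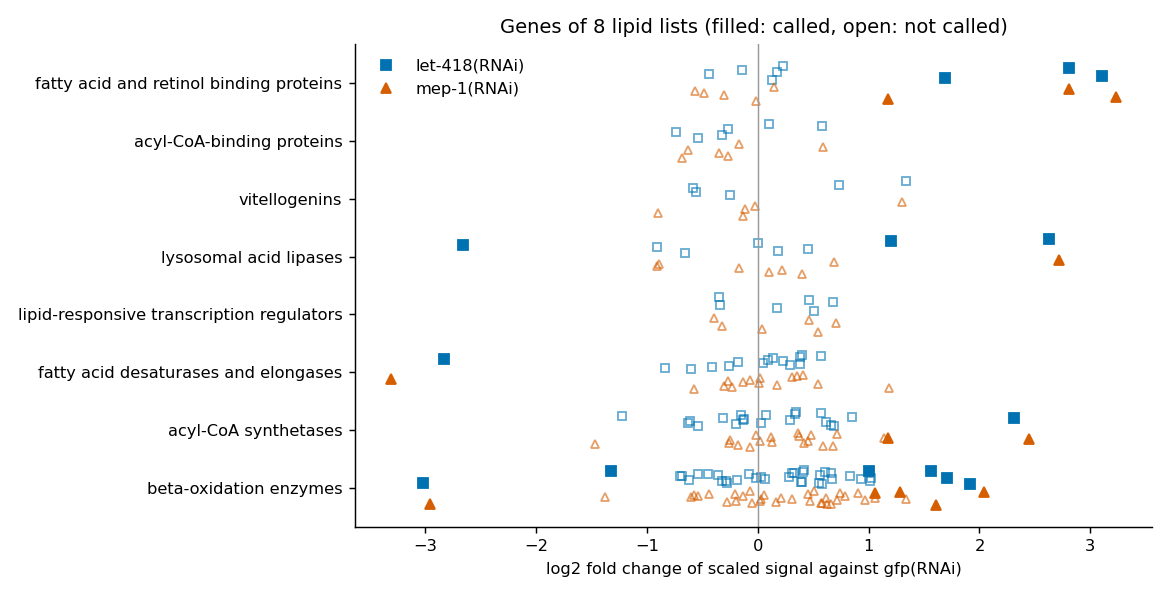
Log2 fold change of scaled signal against gfp(RNAi) for the 105 measured genes of 8 lipid lists, in let-418(RNAi) (squares) and mep-1(RNAi) (triangles). Filled symbols are called, 14 for let-418(RNAi) and 12 for mep-1(RNAi), and open symbols are not.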

How the data were processed

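The authors deposited MAS5 signal intensity values for 22548 probe sets on 9 arrays, per the labels from AGCC and MAS5 with global scaling. MAS5 versions are not given in the sources used here. The trimmed means (2% off each end) of the deposited arrays differed, so every array was scaled to their mean, 330.2, and log2 was taken with no offset. limma 3.58.1 in R 4.3.3 (group means over all 9 arrays, eBayes with trend, 2-sided) was tested on simulated data first. The methods' t-test at a p of at most 0.01 was an alternative. Probe sets were named from GEO's platform annotation, with 20766 naming 1 gene, 887 several and 895 none. For a gene with several, the one with the highest mean log2 signal stood for it. The members and lists were chosen with earlier results of these data known. From each list, up to 3 called genes with the largest mean change were named, with all members, both targets and the 3 genes most like a member called in both comparisons.

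A batch number in the labels is shared across groups. Residuals of same-batch arrays correlated at -0.03 to 0.10 (mean 0.04, 9 pairs), and others at -0.14 to 0.10 (mean -0.02, 18 pairs). The study describes the batches as independent and the arrays as biological replicates. Their number limits the precision. Alternatives were quantile normalization, no scaling, the offset, no dim probe sets, no trend, 6 arrays only, a batch block and each array left out. Neighbouring genes came from RefSeq on WBcel235.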

Additional observations from a re-analysis of the deposited data

How the results depend on the processing

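In let-418(RNAi) minus gfp(RNAi), the 2 calls became 1 with no scaling (lbp-8) and 1 without the dimmest 25% of probe sets (lbp-1), and 0 with the offset and by the methods' t-test, unadjusted or after Benjamini-Hochberg. They ranged from 0 to 2 with single arrays left out. In mep-1(RNAi) minus gfp(RNAi), the 1 call became 0 with the offset and 0 without the dimmest 25%, which drops lbp-8, and remained lbp-8 otherwise, the methods' t-test included. The calls in both comparisons are of values counted as used to select the family, so that they remain supports nothing. With a replicate block the counts were 2, 1 and 0, and it changed no member's call. Of 286 alternative member values against gfp(RNAi), 283 moved by less than 1 SD, the larger SD of log2 signal of the groups compared. The 3 that moved more were both lbp-8 values with the offset and lbp-1 in mep-1(RNAi) with no scaling (0.28). This count does not measure stability. No trend, 6 arrays only, the batch block and no dim probe sets leave a log2 fold change as it is. Leaving out 1 array cannot move it by 1 SD. Only quantile normalization, no scaling and the offset could do so. The sign turned in 11 of the 286, none of a called member: 3 of lbp-3 (0.12 to 0.40), 6 of lbp-4 (-0.11 to 0.13) and 2 of lbp-7 (-0.14 and -0.071), from leaving out single arrays or no scaling.

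Over single arrays left out, the values between the knockdowns ran from -0.35 to 0.0031 for lbp-3, -0.13 to 0.31 for lbp-5 and -0.18 to 0.18 for lbp-6. Leaving out a gfp(RNAi) array, no trend, 6 arrays only, the batch block and no dim probe sets cannot change these log2 differences. The next count thus holds many values whose sign could not turn. Of 143 member values between the knockdowns, 137 kept their sign and stayed not called. The others were lbp-5 (-0.11) and lbp-6 (-0.18) with no scaling, lbp-5 (-0.13) and lbp-6 (-0.18) without let-418(RNAi) replicate 2, lbp-3 (0.0031) without let-418(RNAi) replicate 3 and lbp-5 (-0.064) without mep-1(RNAi) replicate 1. The cause was not tested. The lipid list calls in mep-1(RNAi) went from 12 to 7 with no scaling, which moves the median of all probe sets to -0.27, and to 13 with the block. Leaving arrays out of the list counts was chosen after seeing the data, and gave 10 to 16, 11 to 13 and, between the knockdowns, 0 to 1. Precision for lbp-8 is limited by its signal, which lay under the lower quartile on every array.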
